A study of Lentinus brumalis with 11 samples.

Results

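The transcriptome of the white-rot fungus *Polyporus brumalis* after 10 days of solid-state fermentation (SSF) on wheat straw was compared with that of liquid malt cultures, using every gene of the count table. The 6 libraries were chosen by their sample titles from the 11 of the series: 3 of Day 10 of SSF and 3 of the liquid control. For Day 10, the dikaryotic strain BRFM 985 was first grown for 6 days by the labels (slightly longer by the study's methods) in liquid on 2% malt extract, and the mycelium was then kept for 10 days at 28 °C in packed-bed glass columns on 20 g (dry weight) of sterilized wheat straw wetted with a solution of copper, iron and manganese sulfates. The control was the same strain after 10 days of stationary liquid growth on 2% malt extract. The 2 libraries of Day 4 and the 3 of Day 15 of SSF entered the same fit, and their values are given beside those of Day 10. Substrate, culture format, added metals and total culture time all differ between Day 10 and the control and cannot be told apart. The study calls the cultures biological replicates, but the labels do not say that replicates came from separate cultures. If they did not, the p-values would measure only the spread between these libraries. For its straw measurements the study pooled its replicates, and it does not say whether RNA was taken before pooling. Reads of the dikaryon were mapped to the genome of a monokaryon derived from it.

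White-rot fungi are the main organisms that break down lignin, the aromatic polymer that encases the cellulose and hemicelluloses of plant cell walls. They secrete heme peroxidases of the family AA2, which oxidize lignin with hydrogen peroxide, and oxidases of the families AA3 and AA5_1, which can supply that peroxide. Glycoside hydrolases (GH), carbohydrate esterases (CE) and lytic polysaccharide monooxygenases (AA9) act on the polysaccharides, while cytochrome P450s, glutathione S-transferases and membrane transporters handle the small aromatic and sugar products inside the cell.

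Total counts were 22644347 to 23650391 in the Day 10 libraries and 35964192 to 42408348 in the control libraries, and 15865 to 15883 and 16065 to 16090 of the 18244 genes had a count. Spearman's rho across genes was 0.992 between Day 10 replicates 1 and 2, 0.986 and 0.987 between either of them and replicate 3, and 0.996 to 0.997 between control replicates (genes are not independent replicates). Replicate 3 of Day 10 stood apart: 1013 of its genes lay over 1 log2 unit from the mean of the other replicates, against 722 for replicate 1 and 658 for replicate 2. Its rho was 0.958 and 0.961 with the Day 4 libraries, where the other Day 10 replicates had 0.949 to 0.954, and 0.970 to 0.974 with the Day 15 libraries, where they had 0.981 to 0.988. Values without replicate 3 are therefore given beside the results against the control that rest on it. No library repeated another. Only reads with a unique position were counted, which can understate nearly identical family members such as AA2 peroxidases; the sources used here do not say whether counting used strand.

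Most of the transcriptome differed between straw and malt. Of the 15462 genes with enough counts to be tested, 9676 (62.6%) were called at an adjusted p under 0.05 by edgeR's quasi-likelihood test: 4874 (31.5%) had a higher level at Day 10 and 4802 (31.1%) a lower one, and 5786 were not called. The typical change was small: the median log2 fold change was 0.90 among the genes that were higher and -0.91 among those that were lower, with a median standard error (SE) of 0.15. Changes past 1 log2 unit numbered 2150 higher and 2147 lower, and a test against that minimum called 1400 genes (9.05%) higher and 1205 (7.79%) lower. At the far end the balance tipped towards Day 10, with 393 genes higher and 280 lower past 3 log2 units, and 101 higher and 57 lower past 5. Without Day 10 replicate 3, 4990 genes were higher and 4894 lower.

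The split between directions depended on scaling. Where the counts were scaled by library totals alone, without the trimmed mean of M-values (TMM) factors, 3554 genes (23.0%) were higher and 6418 (41.5%) were lower, and the median log2 fold change of all tested genes was -0.24, against -0.02 with TMM. All fold changes given here use TMM, and small ones are read against that shift.

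Levels of single genes are log2(normalized count + 1), and 12 on this scale is the level above which the study called a gene highly transcribed. By this measure 487 of the 18244 genes (2.67%) exceeded a mean of 12 at Day 10 but stayed under it in the control, 355 (1.95%) showed the reverse, and 727 exceeded it in both. Among them, 12 of the 19 AA2 genes passed the level only at Day 10, as did 2 of 3 AA5_1 genes, 5 of 36 AA3 genes and 17 of 17 genes for hemicellulose and pectin. The study chose the AA5_1, hemicellulose and pectin genes on these libraries by high levels on straw. Those for hemicellulose and pectin came from groups of co-regulated genes with means above 12 at Day 4 and under 12 in the control. Their counts are thus in part set by the choice, although that threshold was applied at Day 4 rather than Day 10. The plot of levels at Day 10 and in the control shows these families as a cloud above the diagonal, apart from AA3.

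**Figure D1:**
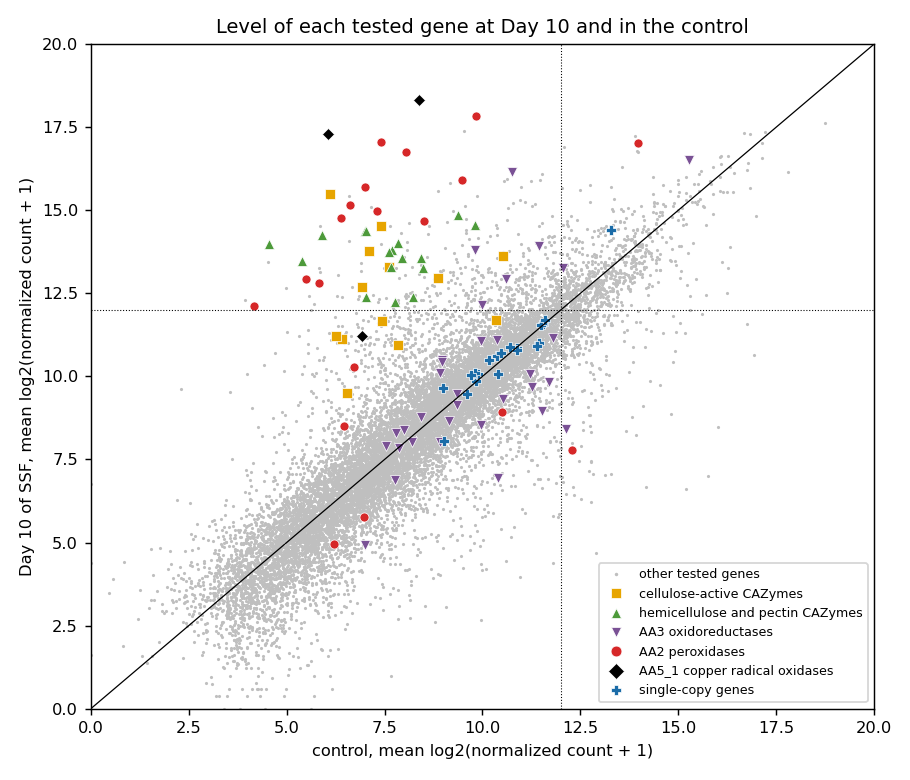
Mean log2(normalized count + 1) of each tested gene in the 3 Day 10 libraries (vertical) and the 3 control libraries (horizontal); grey points are genes outside the marked lists, the solid line marks equal levels and the dotted lines the level of 12. AA5_1 genes and 15 of 19 AA2 genes lie above the line, AA3 genes lie on either side of it, and single-copy genes lie close to it.

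The AA2 peroxidases had the widest range of changes of the lists, and most members were higher on straw. Of its 19 genes, a list the study made from the genome, 15 were higher at Day 10 and 4 were lower, with a median log2 fold change of 7.26 (6.66 without replicate 3), where 31.5% and 31.1% of all tested genes were called in each direction and the median was -0.02. The family took 2.86%, 3.22% and 3.73% of all counts in the Day 10 libraries, against 0.114%, 0.115% and 0.0989% in the control libraries (means 3.27% ± 0.435 and 0.109% ± 0.00901, SD, n = 3 each). Every Day 10 library was above every control library. An exact two-sided permutation test of 3 against 3 libraries gave p = 0.1 for this share, the smallest it allows. It gave the same p for every other list below apart from the single-copy genes. For lists that the study chose on these libraries the separation is in part set by the choice, so there this p is not an independent test.

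Versatile peroxidases (VPs), which oxidize both manganese and lignin units directly, carried most of this. Of the 9 VP genes, 8 were higher at Day 10, with a median log2 fold change of 8.01 over the list, or 6.94 without replicate 3. VP 1412926 had log2 levels of 17.09, 17.27 and 16.75 at Day 10, against 7.45, 7.45 and 7.36 in the control, a log2 fold change of 9.62 (SE 0.23, adjusted p = 3.2e-12). VP 897918 had log2 levels of 16.70, 17.12 and 16.47 at Day 10, against 7.94, 8.15 and 8.08 in the control (log2 fold change 8.71, SE 0.21, adjusted p = 2.8e-12). In neither gene did the groups come near each other, and replicate 3 was the lowest of the Day 10 libraries in both. VP 1487275 took more counts than any other AA2 gene at Day 10, 0.860% of all counts, with log2 levels of 17.46, 17.64 and 18.37 at Day 10, against 9.99, 9.92 and 9.62 in the control (log2 fold change 8.01, SE 0.27, adjusted p = 4.4e-11). VP 1360396 had log2 levels of 14.71, 14.72 and 14.91 at Day 10, against 6.56, 6.45 and 6.17 in the control (log2 fold change 8.37, SE 0.16, adjusted p = 7.5e-13).

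The composition of the VP counts differed as well. Gene 310665 held 82.6% to 84.1% of all VP counts in the control libraries, whereas 1487275 led in each Day 10 library with 30.7%, 30.7% and 38.4% (a share of counts also grows with transcript length). VP 310665 was the only VP with a mean level above 12 in the control. Its log2 levels were 16.72, 16.74 and 17.62 at Day 10, against 14.01, 14.08 and 13.82 in the control (log2 fold change 3.10, SE 0.22, adjusted p = 6.8e-08). One VP was lower: 935251 had log2 levels of 8.76, 8.72 and 9.29 at Day 10, against 10.47, 10.48 and 10.51 in the control, so that the groups did not overlap (log2 fold change -1.56, SE 0.14, adjusted p = 7.1e-07). In bulk RNA, fewer hyphae that express a gene and less of its RNA per hypha cannot be told apart.

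A further 3 VPs were higher at Day 10 with replicate 3 well above the others. VP 918032 had log2 levels of 14.34, 14.17 and 16.44 at Day 10, against 7.37, 7.46 and 7.09 in the control (log2 fold change 8.07, SE 0.62, adjusted p = 1.4e-07). VP 1110945 had 12.31, 12.16 and 13.97 at Day 10, against 5.74, 5.93 and 5.78 in the control, on the same log2 scale (log2 fold change 7.26, SE 0.53, adjusted p = 8.1e-08). VP 1359988 had 10.01, 9.57 and 11.29 at Day 10, against 6.90, 6.43 and 6.87 in the control (log2 fold change 3.73, SE 0.39, adjusted p = 2.9e-06). Leaving out replicate 3 lowered these log2 fold changes to 6.94, 6.43 and 3.05, and all 3 stayed past the test. The summed VP share of counts was 2.07%, 2.31% and 3.21% at Day 10, against 0.0851%, 0.0858% and 0.0729% in the control.

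**Figure D2:**
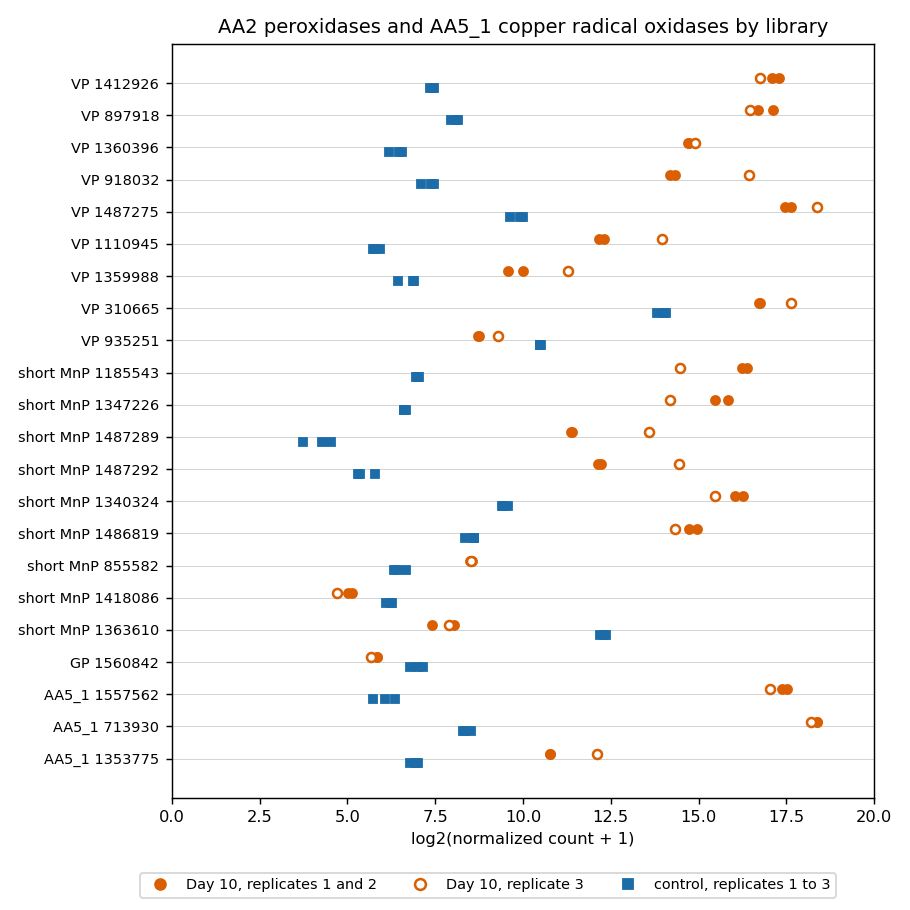
Log2(normalized count + 1) of the 19 AA2 genes (9 VPs, 9 short MnPs and 1 GP) and the 3 AA5_1 genes in each library, with Day 10 (circles, replicate 3 open) above the control (squares) in each row. In 18 of the 22 rows every circle lies to the right of every square. In VP 935251, short MnPs 1418086 and 1363610 and GP 1560842 every circle lies to the left. The share of all genes that separate in this way is not given here. By the test, 31.5% of all tested genes were higher at Day 10 and 31.1% lower.

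Short manganese peroxidases (MnPs), which oxidize manganese ions that in turn attack phenolic lignin, behaved as a mixed set. Of the 9 genes 7 were higher at Day 10 and 2 were lower, with a median log2 fold change of 6.46. MnP 1185543 had log2 levels of 16.22, 16.37 and 14.46 at Day 10, against 6.96, 7.03 and 7.01 in the control (log2 fold change 8.89, SE 0.46, adjusted p = 2.7e-09). MnP 1347226 had log2 levels of 15.47, 15.83 and 14.19 at Day 10, against 6.61, 6.67 and 6.61 in the control (log2 fold change 8.68, SE 0.39, adjusted p = 6.2e-10). Here replicate 3 was the low library, the reverse of its position in the 3 VPs above. MnP 1340324 had log2 levels of 16.03, 16.27 and 15.47 at Day 10, against 9.44, 9.58 and 9.41 in the control (log2 fold change 6.46, SE 0.21, adjusted p = 2.6e-11). MnP 1486819 followed with a log2 fold change of 6.15 and 855582 with 2.03.

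The MnP that led the control was lower on straw. MnP 1363610 took 76.4% to 77.0% of all short MnP counts in the control libraries, with log2 levels of 7.41, 8.04 and 7.89 at Day 10, against 12.32, 12.35 and 12.19 in the control (log2 fold change -4.51, SE 0.16, adjusted p = 5.6e-11). At Day 10, 1185543 led in replicates 1 and 2 with 34.1% and 32.4% of the short MnP counts, and 1340324 led in replicate 3 with 31.9%. MnP 1418086 was lower as well, with log2 levels of 5.02, 5.13 and 4.70 at Day 10, against 6.26, 6.24 and 6.10 in the control (log2 fold change -1.29, SE 0.21, adjusted p = 0.00013). The single generic peroxidase (GP), a class without known activity on lignin, had log2 levels of 5.84, 5.83 and 5.67 at Day 10, against 6.77, 7.02 and 7.15 in the control, and was lower by the test (log2 fold change -1.23, SE 0.17, adjusted p = 3.9e-05). The study lists this gene as an N-terminal fragment. The short MnP share of all counts was 0.788%, 0.909% and 0.518% at Day 10, against 0.0285%, 0.0286% and 0.0254% in the control; it averaged 0.738% ± 0.200 (SD, n = 3) at Day 10, and 0.848% without replicate 3.

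A set of 5 AA2 genes lies close together in the reference gene table: VPs 1487275, 1110945 and 1359988 and short MnPs 1487289 and 1487292 fall within 35 successive gene models. The study lists both of these MnPs as C-terminal fragments. MnP 1487289 had log2 levels of 11.37, 11.40 and 13.59 at Day 10, against 3.73, 4.52 and 4.26 in the control (log2 fold change 8.39, SE 0.67, adjusted p = 2e-07). MnP 1487292 had log2 levels of 12.14, 12.23 and 14.44 at Day 10, against 5.80, 5.31 and 5.37 in the control (log2 fold change 7.86, SE 0.64, adjusted p = 2.3e-07). Replicate 3 was the highest Day 10 library in all 5 genes; without it their log2 fold changes were 7.25 for 1487289 and 6.68 for 1487292, still past the test. Gene 1111091, which has no annotation in the tables used here and lies between these MnPs, had log2 levels of 10.01, 9.97 and 12.14 at Day 10, against 5.32, 5.38 and 5.93 in the control (log2 fold change 5.53, SE 0.58, adjusted p = 2.7e-06; 4.42 without replicate 3). Of the 21 other tested genes in the stretch, 8 were higher and 2 lower, where 31.5% of all tested genes were higher, with a median log2 fold change of 0.47, and 3 lay above 2 log2 units. The stretch was chosen after its values were seen.

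**Figure D3:**
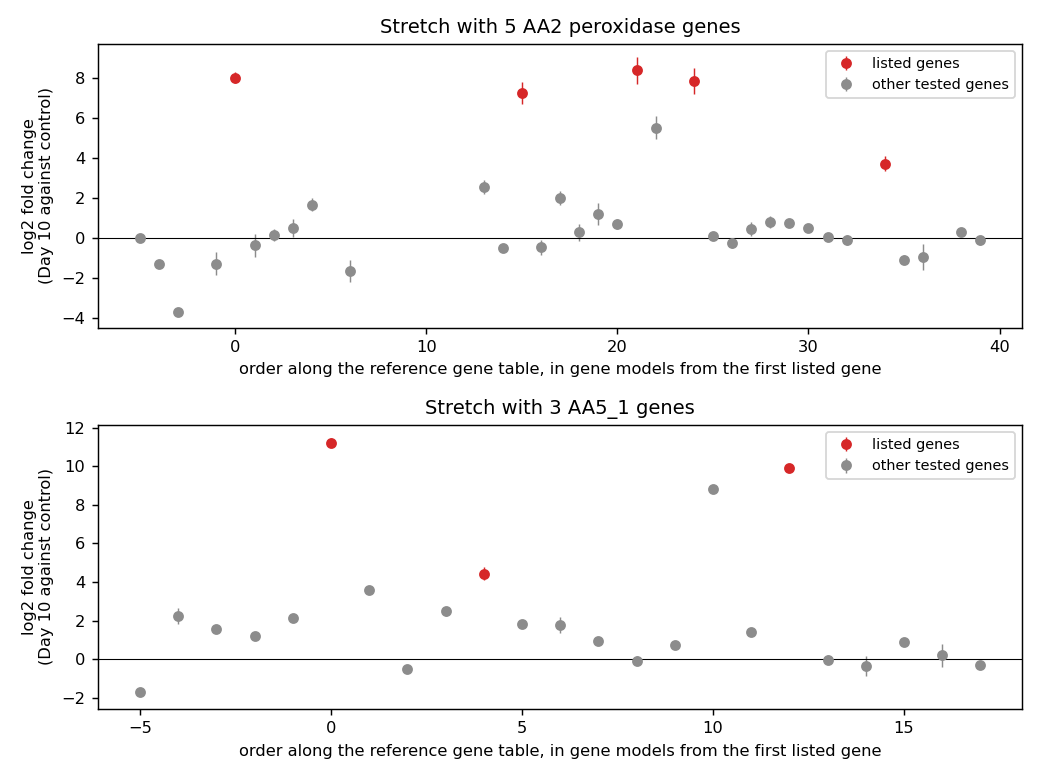
Log2 fold change of Day 10 against the control (points, with bars of 1 standard error) for tested genes along the reference gene table, with positions counted in gene models from the first listed gene and 5 gene models of margin at either end. The 5 AA2 genes of the upper panel lie between 3.73 and 8.39 and the 3 AA5_1 genes of the lower panel between 4.44 and 11.23, while most other genes lie near 0 in the upper panel and a little above it in the lower.

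Copper radical oxidases of AA5_1, which oxidize aldehydes such as glyoxal and release hydrogen peroxide, had the largest relative change in share of any list. This list holds only AA5_1 genes that the study reported as active on straw. The AA2 and AA3 lists were made from the genome and include falling members, so the choice of genes favours this rank. The study chose 713930 and 1557562 by levels in the same libraries and reports 1353775 among the enzymes secreted on straw. Their count is thus not independent evidence of direction. All 3 were higher at Day 10, with a median log2 fold change of 9.91. Together they took 1.80%, 1.82% and 1.60% of all counts at Day 10, against 0.00246%, 0.00209% and 0.00202% in the control, a ratio of means of 795. Gene 713930 had log2 levels of 18.38, 18.36 and 18.20 at Day 10, against 8.51, 8.36 and 8.28 in the control (log2 fold change 9.91, SE 0.17, adjusted p = 5.8e-13). It took 1.16% of all counts at Day 10, the largest share of any gene there. Gene 1557562 had log2 levels of 17.36, 17.51 and 17.04 at Day 10, against 6.36, 6.08 and 5.73 in the control, and its log2 fold change of 11.23 was the largest of any tested list member (SE 0.23, adjusted p = 1.2e-12).

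The 3 AA5_1 genes lie within 13 gene models of each other. Gene 1353775, much lower in level than the other AA5_1 genes, had log2 levels of 10.75, 10.76 and 12.11 at Day 10, against 7.01, 6.77 and 6.96 in the control (log2 fold change 4.44, SE 0.33, adjusted p = 1.1e-07; 3.83 without replicate 3). Among the 10 other tested genes between them, 8 were higher and 1 lower, where 31.5% of all tested genes were higher, with a median log2 fold change of 1.58. One of these, 1384730, had log2 levels of 15.35, 15.47 and 15.45 at Day 10, against 6.52, 6.78 and 6.50 in the control (log2 fold change 8.81, SE 0.14, adjusted p = 4.7e-13). It has no annotation in the tables used here, and the stretch was again chosen after its values were seen.

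The AA3 oxidoreductases, flavoenzymes that include aryl alcohol, glucose and methanol oxidases and dehydrogenases, did not move one way. Of 36 genes, 33 passed the filter on low counts; 15 were higher at Day 10, 12 were lower and 6 were not called, where 31.5% and 31.1% of all tested genes were called in each direction, and the median log2 fold change was 0.12. With library totals alone these counts were 12 higher and 15 lower and the median turned to -0.11, so no direction is given for the family. Of the 3 untested genes, 1481505 and 1488846 had no count in any library and 1410997 had log2 levels of 2.25, 2.82 and 1.76 at Day 10, against 2.83, 3.46 and 1.94 in the control. The 12 genes with a predicted secreted product divided likewise, with 6 higher, 5 lower and a median log2 fold change of -0.04. The summed AA3 share of counts was nevertheless 0.710%, 0.743% and 1.17% at Day 10, against 0.362%, 0.351% and 0.334% in the control.

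This share rested on few genes. AA3_2 gene 1422328, the leading AA3 gene in all 6 libraries, had log2 levels of 16.15, 16.17 and 17.23 at Day 10, against 15.32, 15.28 and 15.23 in the control (log2 fold change 1.32, SE 0.25, adjusted p = 0.00042; 0.87 without replicate 3). The AA3_3 gene 1364967, of the family that holds methanol oxidases, had log2 levels of 15.85, 16.15 and 16.43 at Day 10, against 10.76, 10.86 and 10.64 in the control (log2 fold change 5.39, SE 0.16, adjusted p = 1.6e-11). It rose while AA3_3 gene 1484504 fell: the log2 levels of 1484504 were 9.55, 9.41 and 10.55 at Day 10, against 11.60, 11.76 and 11.72 in the control (log2 fold change -1.78, SE 0.23, adjusted p = 2.2e-05). Among AA3_2 genes, 823803 rose with a log2 fold change of 3.97, 1399288 with 2.49 and 1349968 with 2.34. The largest AA3 fall was in AA3_2 gene 1388653, with log2 levels of 8.21, 8.40 and 8.61 at Day 10, against 12.14, 12.17 and 12.11 in the control (log2 fold change -3.74, SE 0.12, adjusted p = 2.6e-11). AA3_2 genes 1394538 and 1358588 were lower by log2 fold changes of -3.46 and -2.51. Cellobiose dehydrogenase, gene 1364243, which oxidizes cellobiose and can pass electrons to AA9 enzymes, had log2 levels of 10.88, 10.43 and 11.06 at Day 10, against 6.96, 6.62 and 6.67 in the control (log2 fold change 4.05, SE 0.20, adjusted p = 1.9e-09).

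Genes for polysaccharide breakdown were taken from a table that the study chose on these libraries, by levels at Day 4 and in the control. That all were higher at Day 10 is therefore not independent evidence of their direction. All 52 genes of that table, AA2, AA3 and AA5_1 members included, were higher at Day 10, and they took 6.03%, 6.12% and 6.26% of the counts at Day 10, against 0.105%, 0.103% and 0.0995% in the control. Its 13 genes of families active on cellulose had a median log2 fold change of 4.71, and 7 of them passed a mean level of 12 at Day 10 alone. Their summed share of counts was 0.572%, 0.412% and 0.468% at Day 10, against 0.0195%, 0.0198% and 0.0185% in the control.

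The largest of these changes was in GH7 gene 1347545, of the family of cellobiohydrolases that release cellobiose from cellulose chains. It had log2 levels of 15.83, 15.11 and 15.53 at Day 10, against 6.34, 6.16 and 5.82 in the control (log2 fold change 9.40, SE 0.33, adjusted p = 5.6e-11). A second GH7 gene, 355477, stayed at a far lower level on straw, with log2 levels of 8.94, 8.66 and 10.93 at Day 10, against 6.32, 6.69 and 6.60 in the control (log2 fold change 3.34, SE 0.55, adjusted p = 0.00016; 2.26 without replicate 3). GH6 gene 1477052, of the second family of cellobiohydrolases, had log2 levels of 14.05, 13.58 and 13.67 at Day 10, against 7.17, 7.17 and 6.94 in the control (log2 fold change 6.68, SE 0.18, adjusted p = 7.2e-12). Day 10 and control levels did not overlap in any of the 3, and the share of all genes for which this holds is not given here.

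The 5 AA9 genes, whose products cleave crystalline cellulose by oxidation, had log2 fold changes of 4.08 to 7.11. AA9 gene 1339229 had log2 levels of 14.71, 14.46 and 14.41 at Day 10, against 7.48, 7.29 and 7.46 in the control (log2 fold change 7.11, SE 0.27, adjusted p = 1e-10), and it took 0.0840% of the counts of Day 10, out of 0.169% for the 5 AA9 genes together. The 3 GH5 genes, a broad family that includes endoglucanases, spread most: 1401866 had a log2 fold change of 5.75, 1412845 of 3.09 and 1063890 of 1.33. GH12 gene 1351738 and GH131 gene 492772, both of glucanase families, had log2 fold changes of 4.71 and 3.11.

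Genes for hemicellulose and pectin all rose as well, over a narrower range. The 17 genes had log2 fold changes from 4.14 to 9.75 with a median of 5.66, and their share of counts was 0.994%, 0.865% and 0.912% at Day 10, against 0.0192%, 0.0179% and 0.0182% in the control. GH10 gene 1486161, of a xylanase family, had log2 levels of 13.44, 13.31 and 15.23 at Day 10, against 4.88, 4.34 and 4.42 in the control (log2 fold change 9.75, SE 0.61, adjusted p = 1.7e-08; 8.84 without replicate 3). The other GH10 genes had log2 fold changes of 5.60 (16190), 4.48 (659690) and 4.14 (1520578). GH30 gene 784226, also of a family with xylanases, had a log2 fold change of 5.40.

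Esterases that strip side groups from hemicellulose and pectin were among the strongest. CE12 gene 832761, of a family of pectin acetylesterases, had log2 levels of 14.76, 14.44 and 13.59 at Day 10, against 5.95, 5.83 and 5.89 in the control (log2 fold change 8.45, SE 0.31, adjusted p = 8.2e-11). CE15 gene 1486135, a family whose glucuronoyl esterases split links between lignin and xylan, had log2 levels of 13.70, 13.33 and 13.41 at Day 10, against 5.63, 5.28 and 5.27 in the control (log2 fold change 8.10, SE 0.17, adjusted p = 1.4e-12). CE1 gene 1456088, of a family of acetylxylan and feruloyl esterases, had log2 levels of 13.77, 13.93 and 15.43 at Day 10, against 6.82, 7.16 and 7.14 in the control (log2 fold change 7.53, SE 0.46, adjusted p = 1.2e-08; 6.80 without replicate 3). The second CE1 gene, 139112, had a log2 fold change of 5.10. The CE16 acetylesterase genes had log2 fold changes of 7.40 (1412498), 5.66 (1404492) and 4.79 (1395444).

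Side-chain and pectin hydrolases completed the set. GH2 gene 1437352 had log2 levels of 14.49, 14.52 and 13.02 at Day 10, against 8.02, 7.79 and 7.70 in the control, with replicate 3 the lowest at Day 10 (log2 fold change 6.30, SE 0.37, adjusted p = 9.7e-09). GH28 gene 1447784, of the polygalacturonase family, GH93 gene 397425, of a family that trims arabinan, and GH51 gene 1461559, of a family with arabinofuranosidases, had log2 fold changes of 6.15, 6.09 and 5.51. GH27 gene 1498325, of a family with alpha-galactosidases, had a log2 fold change of 4.72. The 8 genes of other GH families of the table changed less, from 1.98 for GH16 gene 1484581 to 4.77 for GH3 gene 1364811, of a family with beta-glucosidases, with a median log2 fold change of 2.96. GH18 gene 1351991, of the chitinase family, GH15 gene 1349191, of the glucoamylase family, and GH76 gene 1407721, of a family with alpha-mannanases, lay between these at 2.16, 2.90 and 3.39.

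**Figure D4:**
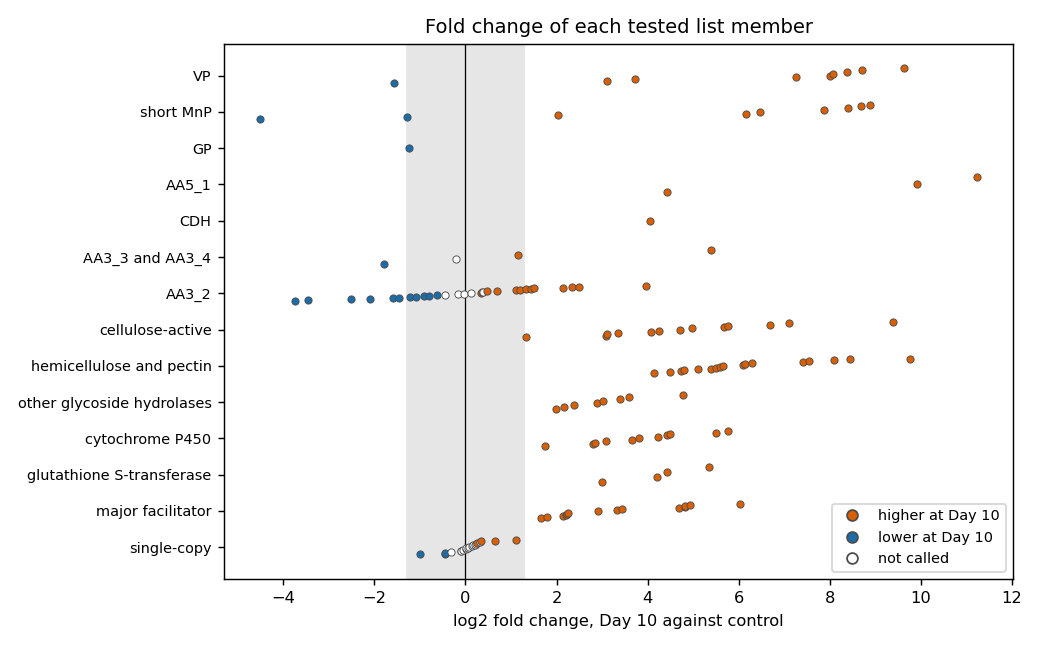
Log2 fold change of Day 10 against the control for each tested member of each gene list (filled orange where higher, blue where lower, open where not called); the grey band spans the 10th to 90th percentile of all tested genes, -1.28 to 1.28, and the vertical line their median of -0.02. AA3_2 and the single-copy genes straddle that line, while the lists the study chose on these libraries lie to its right.

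Genes of intracellular detoxification and transport come from the study's set of genes highly transcribed on straw, again chosen on these libraries including Day 10, so that their direction is fixed by the choice. The 11 cytochrome P450 genes were all higher, with a median log2 fold change of 3.80, and took 0.346% ± 0.0354 of the counts at Day 10 and 0.0322% ± 0.000858 in the control (SD, n = 3 each). The largest change was in CYP53 gene 1398198, of a family that hydroxylates benzoate, with log2 levels of 13.16, 13.31 and 13.33 at Day 10, against 7.43, 7.71 and 7.33 in the control (log2 fold change 5.76, SE 0.13, adjusted p = 2.7e-12). CYP5150 gene 1364780 followed with 5.50, the 4 CYP512 genes had 3.08 to 4.48, and CYP5144 gene 1487024 had the smallest change, 1.74.

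The 4 glutathione S-transferase genes, whose products join glutathione to reactive compounds, were higher with a median log2 fold change of 4.31 and took 0.411% ± 0.0414 of the counts at Day 10 and 0.0195% ± 0.000364 in the control (SD, n = 3 each). Gene 1357910 had log2 levels of 15.95, 16.12 and 15.60 at Day 10, against 10.55, 10.60 and 10.50 in the control (log2 fold change 5.34, SE 0.17, adjusted p = 3.2e-11). The 14 genes of the major facilitator superfamily, membrane transporters of sugars and other small molecules, had log2 fold changes of 1.67 to 6.02 with a median of 3.12. Gene 1452357 had the largest, with log2 levels of 12.60, 12.80 and 12.68 at Day 10, against 6.65, 6.78 and 6.56 in the control (log2 fold change 6.02, SE 0.12, adjusted p = 7.5e-13).

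The 20 single-copy genes that the study used for its phylogeny were compared under both scalings. Of these, 4 were higher, 3 lower and 13 not called, where 31.5% of all tested genes were higher and 31.1% lower. Their median log2 fold change was 0.07 and turned to -0.16 with library totals alone. The median of all tested genes moved likewise, from -0.02 to -0.24, so these genes cannot decide between the scalings. Their share of counts was 0.209%, 0.173% and 0.177% at Day 10, against 0.181%, 0.170% and 0.160% in the control, and the groups overlapped (exact permutation p = 0.4). The member with the largest change, listed as SCP160 (866538), had log2 levels of 14.60, 14.45 and 14.15 at Day 10, against 13.33, 13.38 and 13.12 in the control (log2 fold change 1.11, SE 0.12, adjusted p = 4e-06).

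**Figure D5:**
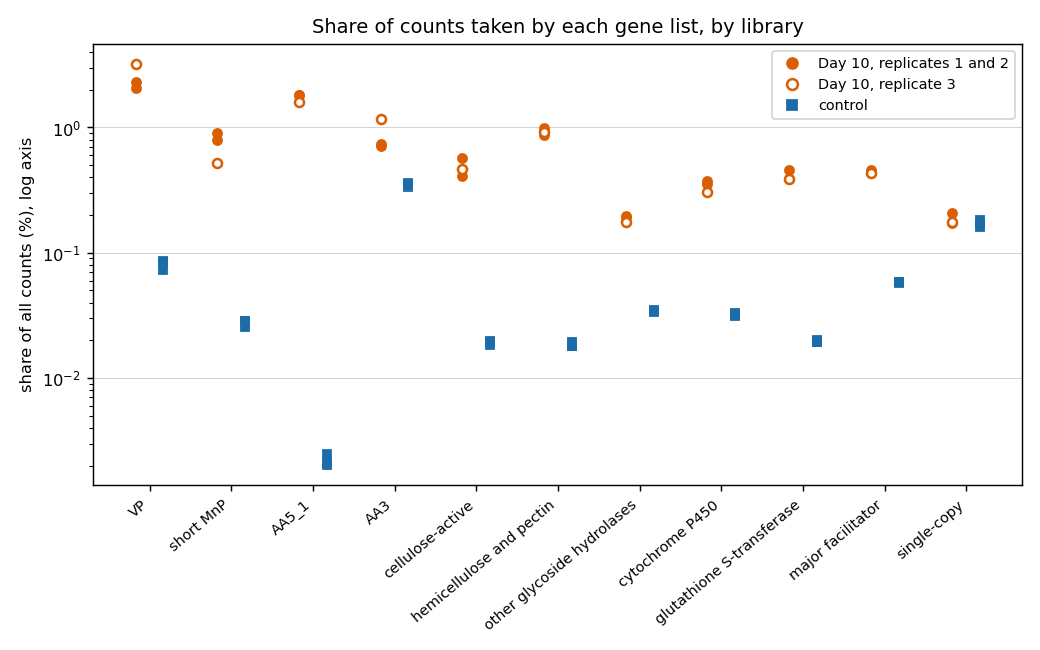
Share of all counts (%, log axis) taken by each gene list in the 3 Day 10 libraries (circles, left, replicate 3 open) and the 3 control libraries (squares, right). In each of the 11 plotted lists but the single-copy genes all Day 10 points lie above all control points; the widest gap is that of AA5_1, 1.74% ± 0.121 and 0.00219% ± 0.000238 (SD, n = 3 each).

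Day 10 was next compared with the earlier and later days on straw. Against Day 4, 44.3% of the tested genes were called: 3450 (22.3%) had a higher level at Day 10 and 3402 (22.0%) a lower one; with library totals alone the split was 4544 and 2477. Against Day 15, 24.1% were called, 1915 (12.4%) with a higher level at Day 10 and 1810 (11.7%) with a lower one. Of the 19 AA2 genes, Day 10 was above Day 4 in 5 and below it in 12, and above Day 15 in 12 and below it in 1. AA2 genes took 7.83% and 7.86% of all counts in the Day 4 libraries, 2.86% to 3.73% in those of Day 10 and 1.70% to 1.90% in those of Day 15.

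The peroxidases did not follow a single course. VP 1360396 had a mean log2 level of 18.95 at Day 4, 14.78 at Day 10 and 12.07 at Day 15 (log2 fold change of Day 10 against Day 4 of -4.14, adjusted p = 5.6e-10, and against Day 15 of 2.72, adjusted p = 1.2e-07). VP 1412926 instead had 14.95 at Day 4, 17.04 at Day 10 and 16.86 at Day 15, in mean log2 level (log2 fold change of Day 10 against Day 4 of 2.09, adjusted p = 2.4e-06; Day 15 did not differ by the test, 0.20, adjusted p = 0.4). MnPs 1185543 and 1347226 were likewise higher at Day 10 than at Day 4, with log2 fold changes of 2.97 (adjusted p = 7.9e-05) and 2.61 (adjusted p = 5.1e-05). VP 935251, lower than the control at Day 10, was higher than at Day 4 by a log2 fold change of 1.53 (adjusted p = 1.6e-05).

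In the AA2 genes where Day 10 replicate 3 lay furthest from the other replicates, its position went with this order of days. It did not in every AA2 gene that fell from Day 4 to Day 15. Replicate 3 minus the mean of replicates 1 and 2 was only 0.19 in VP 1360396 and was -0.53 in MnP 1486819. In 5 AA2 genes (918032, 1110945, 1359988, 1487289 and 1487292) its log2 level was over 1 unit above the mean of replicates 1 and 2, and in 2 (1185543 and 1347226) over 1 unit below. The first set had log2 fold changes of -2.55 to -6.85 against Day 4 and 3.06 to 5.16 against Day 15, and the second set those given above. All of these contrasts include replicate 3, which shifts them, and the cause of its position was not tested. Without replicate 3, 15 AA2 genes were again higher and 4 lower than in the control.

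The other lists placed Day 10 differently. All 3 AA5_1 genes were higher at Day 10 than at Day 4, by log2 fold changes of 0.47 (1557562, adjusted p = 0.039), 0.73 (713930, adjusted p = 0.00054) and 2.00 (1353775, adjusted p = 0.00045), and higher than at Day 15 by 0.48, 0.90 and 2.39. Of the 13 cellulose-active genes, Day 10 was below Day 4 in 11 with 2 not called, and above Day 15 in 10 and below it in 1. Over all tested genes, Day 10 was below Day 4 in 22.0% and above Day 15 in 12.4%. The study chose these 13 genes partly by high levels at Day 4, which favours lower levels at Day 10. The widest step was in GH7 gene 355477, with a mean log2 level of 14.83 at Day 4, 9.51 at Day 10 and 7.43 at Day 15. GH7 gene 1347545 did not differ between Day 10 and Day 4 by the test (log2 fold change -0.39, adjusted p = 0.23) and was higher at Day 10 than at Day 15 (1.45, adjusted p = 0.0008).

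Genes for hemicellulose and pectin were divided: Day 10 was above Day 4 in 8 of 17 and below it in 6. It was above Day 15 in 5 and below it in 6. Over all tested genes, Day 10 was above Day 4 in 22.3% and below it in 22.0%, and above Day 15 in 12.4% and below it in 11.7%. The study chose these 17 genes partly by their levels at Day 4. GH2 gene 1437352, GH27 gene 1498325 and CE16 genes 1395444 and 1412498 were higher at Day 10 than at Day 4 by log2 fold changes of 2.57, 2.08, 1.94 and 1.90, whereas GH10 gene 659690 was lower by a log2 fold change of -2.44. Among the 33 tested AA3 genes Day 10 was above Day 4 in 8 and below it in 9, near the shares over all tested genes. These counts became 11 and 7 with library totals alone. Day 10 was above Day 15 in 14 AA3 genes and below it in 2. Among transporters, 1394716 stood out with a log2 fold change of Day 10 against Day 4 of 2.89 (adjusted p = 5.3e-09).

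Outside these lists the genes carry no annotation in the tables used here, and are given by their gene number. The largest rises among genes with a mean log2 level of at least 10 at Day 10 were in 1355747, 1384730 (described above), 1480897, 1357405, 1109042, 1479696, 1361471 and 1403921, with log2 fold changes of 8.98, 8.81, 8.69, 8.58, 7.92, 7.84, 7.68 and 7.48. Gene 1357405 rested in part on replicate 3, and its log2 fold change was 7.78 without it. Gene 1355747 had log2 levels of 13.73, 13.61 and 12.97 at Day 10, against 4.74, 4.34 and 4.46 in the control (SE 0.23, adjusted p = 4.9e-12). Gene 1479696 had log2 levels of 17.42, 17.60 and 17.12 at Day 10, against 9.56, 9.45 and 9.60 in the control (SE 0.17, adjusted p = 1.7e-12), and took 0.610% of the counts at Day 10. Its rise was close to the median of the VPs. Genes 1480897 and 1403921 were also higher at Day 10 than at Day 4, by log2 fold changes of 3.11 (adjusted p = 2.5e-08) and 3.93 (adjusted p = 1.7e-08).

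The largest falls among genes with a mean log2 level of at least 10 in the control were of similar size. Genes 1397867, 1404102, 1346203, 114754, 1423903, 1341061, 613263 and 1401242 had log2 fold changes of -8.33, -8.28, -8.21, -7.44, -7.27, -7.09, -6.86 and -6.38. Gene 1404102 had a mean log2 level of 4.68 at Day 10, against 12.89 in the control, with no overlap of libraries (SE 0.17, adjusted p = 9.5e-13). Gene 1341061 had log2 levels of 7.73, 7.59 and 10.06 at Day 10, against 16.01, 16.00 and 16.06 in the control (SE 0.61, adjusted p = 3.9e-07). Gene 1346203 had log2 levels of 6.53, 5.77 and 8.72 at Day 10, against 15.74, 15.66 and 15.87 in the control (SE 0.67, adjusted p = 2.3e-07). Replicate 3 was the highest Day 10 library in both of these; without it their log2 fold changes were -8.38 and -9.59, and those of 1397867, 1423903 and 1401242 were -9.17, -8.11 and -7.09.

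Abundant transcripts were shared in part. The 10 most abundant genes of a library took 6.94% to 7.15% of its counts at Day 10 and 6.89% to 7.47% in the control. Gene 1401083 led the control with 1.86% of its counts and took 0.731% at Day 10 (log2 fold change -1.11, SE 0.16, adjusted p = 5.7e-05). Gene 1393099, among the 10 largest of the control with 0.524% of counts, had log2 levels of 10.72, 10.70 and 10.53 at Day 10, against 16.89, 16.95 and 16.93 in the control (log2 fold change -6.29, SE 0.13, adjusted p = 9.5e-13). Gene 1033067, among the 10 largest of Day 10, had log2 levels of 17.59, 17.42 and 16.73 at Day 10, against 13.91, 14.09 and 13.69 in the control (log2 fold change 3.37, SE 0.20, adjusted p = 1.2e-08). Gene 1409925 was among the 10 largest of both, with log2 levels of 18.14, 17.66 and 16.29 at Day 10, against 17.09, 17.28 and 17.25 in the control; the groups overlapped and it was not called (log2 fold change 0.32, adjusted p = 0.46), but without replicate 3 it was called higher (0.70, adjusted p = 0.024).

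Few genes were detected in only one of the conditions. Counts were present at Day 10 and 0 in all 3 control libraries for 54 genes, but in all 3 Day 10 libraries for only 3 of them. Gene 1423606 had 76, 101 and 89 counts at Day 10 and 0 in each of the deeper control libraries, which made it at least 182-fold higher at Day 10, with 3 counts over the group as the floor (adjusted p = 3.5e-07). Gene 1455812 had 31, 19 and 7 counts at Day 10 and 0 in the control, at least 39.1-fold higher (adjusted p = 0.00013). In the other direction 197 genes had counts in the control and 0 at Day 10, where the libraries were shallower, and 39 of these had a count in all 3 control libraries. Gene 1423638 had 0 counts at Day 10 against 85, 83 and 75 in the control, at least 39.4-fold lower at Day 10 (adjusted p = 5e-06), and 1420455 had 0 against 44, 22 and 44, at least 17.8-fold lower (adjusted p = 0.00011). These floors cover counting error only.

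Some genes peaked or dipped at Day 10 itself. By the same fit the Day 10 level of 150 genes exceeded those of the control, Day 4 and Day 15, and that of 57 genes lay below all of them. The clearest peak by its smallest difference was gene 372185, with log2 levels of 11.21, 10.53 and 11.31 at Day 10, against 8.11, 8.07 and 8.01 in the control and means of 8.02 at Day 4 and 8.71 at Day 15. Its log2 fold changes were 2.98 against the control (adjusted p = 7.8e-09), 3.07 against Day 4 (adjusted p = 1.5e-07) and 2.35 against Day 15 (adjusted p = 5.3e-06). Gene 1422195 followed with 2.97, 2.10 and 2.30 against the same groups, and the AA5_1 gene 1353775 was among the 5 clearest with 4.44, 2.00 and 2.39. In 1353775, 1481581 and 111545 replicate 3 was over 1 log2 unit above the other Day 10 replicates, and without it the log2 fold changes against the control were 3.83, 1.28 and 1.38. Gene 1481581 had log2 levels of 9.82, 9.87 and 11.99 at Day 10, against 8.59, 8.40 and 8.65 in the control, and its log2 fold change against the control was 2.38 with all replicates. The clearest dip was gene 1397821, with log2 levels of 7.86, 8.18 and 8.19 at Day 10, against 9.43, 9.52 and 9.64 in the control and means of 9.59 at Day 4 and 9.35 at Day 15 (log2 fold changes of -1.47, -1.53 and -1.29 against the control, Day 4 and Day 15, adjusted p = 2e-05, 6.4e-05 and 0.00053).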

How the data were processed

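The deposited values are counts of reads per predicted gene made by the authors: reads were trimmed with Sickle, mapped with TopHat2 to the monokaryon's genome, filtered to unique mappings and counted per gene with HTSeq. For normalization the submitters' processing notes name DESeq 1.5 and the study DESeq2; other versions are not given in the sources used. All 11 libraries (columns) were used.

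From the counts, edgeR 4.0.16 (R 4.3.3) was run with TMM scaling, filterByExpr (minimum count 10, minimum total 15), 1 mean per group, 7 residual degrees of freedom and quasi-likelihood F tests; p-values were adjusted by Benjamini-Hochberg over all 15462 tested genes, with a limit of 0.05. The contrasts were Day 10 against the control, Day 4 and Day 15. Each standard error is the absolute log2 fold change over the square root of F. Levels use DESeq2 1.42.0 size factors, log2 and a pseudocount of 1. Summaries used Python 3.11.15, pandas 2.3.3 and scipy 1.17.1. The scripts were tested on simulated data.

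Lists come from the study's tables (AA2 and AA3 with cellobiose dehydrogenase from the genome, single-copy genes from its phylogeny, the rest chosen by the study on these libraries); the division of its polysaccharide table by CAZy family was made here, and lists by product name could not be made because the tables used here hold no product names. The members and lists were chosen with earlier results of these data known. Every list member may be named. Outside the lists, the rule names the 8 largest rises and falls (adjusted p under 0.05, no overlap of libraries, mean level of at least 10 in the higher group), the 10 largest shares of counts in each group, the 5 highest genes at 0 in the other group, and the 5 clearest peaks and dips of Day 10; other genes were chosen after their values were seen. Neighbours are by order in the RefSeq table of assembly Polbr1, in which 18240 gene numbers matched.

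The alternatives were DESeq2 size factors, library totals alone, DESeq2's Wald test, keeping every gene with a count above 0, and a minimum count of 50. Further alternatives were only the 6 libraries compared, a replicate block, and a test against a log2 fold change of 1. Thresholds of 11 and 13 for highly transcribed genes, TMM or total scaling of levels, and the counts of tested genes as denominator of shares were also used. Each Day 10 and control library was left out in turn.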

Additional observations from a re-analysis of the deposited data

Results flagged for a closer look

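In gene 1423594 the days on straw differed in direction relative to the liquid control. It was lower at Day 10 than in the control, with a log2 fold change of -0.65, and higher than the control at Day 4 by 0.69 and at Day 15 by 0.51. In edgeR, Day 10 minus Day 4 was -1.34 (adjusted p = 1.6e-05) and Day 10 minus Day 15 was -1.16 (adjusted p = 0.00013). The gene was named as a dip of Day 10, a rule that required both contrasts to be below 0 and past the test. Their p-values are therefore not independent evidence of the difference. Its log2 levels were 7.78, 8.18 and 8.19 at Day 10, against 8.68, 8.55 and 8.84 in the control, so that all 3 Day 10 libraries were below all 3 control libraries. The gene has no annotation in the tables used here.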

How the results depend on the processing

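Of the 208 named genes that were tested against the control, 187 kept their call and direction under every alternative that was counted per gene, and none reversed. The test against a log2 fold change of 1 was not part of this count, and it ended calls of several list members, as given below. Scaling by library totals ended 5 calls (1051827, 1400924, 1407962, 1412809 and 1519533, all with log2 fold changes under 0.5) and added 6. AA3_2 gene 1349632, lower at Day 10, missed the limit without Day 10 replicate 1 (-0.65), Day 10 replicate 2 (-0.55) or control replicate 2 (-0.68, log2 fold changes). Leaving out each Day 10 or control library in turn gave 4529 to 4990 genes higher and 4116 to 4894 lower at Day 10 than in the control. The Day 4 and Day 15 libraries were not left out. Tested against a log2 fold change of 1, 1400 genes were higher and 1205 lower; members lower were 2 for AA2, 7 for AA3, 6 for AA3_2, 1 for short MnP, 0 for GP and 0 for the single-copy genes, and members higher were 8 for AA3, 7 for AA3_2, 1 for AA3_3 and AA3_4 and 0 for the single-copy genes. With library totals, 2 members of AA3_3 and AA3_4 were lower and 2 single-copy genes higher. With each Day 10 or control library left out, AA3_3 and AA3_4 had 1 to 2 members lower (2 without Day 10 replicate 3). The single-copy genes then had 2 to 8 higher (2 without Day 10 replicate 1, 8 without Day 10 replicate 2). The difference in the GP share was -0.000369 to -0.000309 percentage points. The cause of these shifts was not tested. Thresholds of 11 and 13 gave 874 and 275 genes above the level at Day 10 alone, and 547 and 171 in the control alone. As a paired analysis, a replicate block gave 4963 genes higher and 4976 lower than in the control; it added 5 calls among named genes and ended none. Same-numbered Day 10 and control libraries correlated at 0.142, 0.0004 and 0.087 in their deviations, and Day 10 replicate 2 correlated more with control replicate 3, so the numbers were not taken as pairs. With 7 residual degrees of freedom and shallower libraries at Day 10, small changes and low counts are the least certain.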

Other observations

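Neighbouring genes outside the lists sometimes moved together at Day 10. These runs of at least 4 adjacent tested genes past 2 log2 units were chosen after their values were seen, and no test was made of them. The run with higher levels at Day 10 comprised genes 154422, 1480516, 1480517 and 1345068, with log2 fold changes of 5.09, 3.13, 2.73 and 2.38 against the control. Gene 154422 had log2 levels of 11.62, 11.43 and 11.46 at Day 10, against 6.44, 6.23 and 6.55 in the control. Against Day 4 the same genes differed in direction: 1480516 was higher at Day 10 by a log2 fold change of 0.95, 1480517 and 1345068 had -3.02 and -2.70, and 154422 was not called at 0.20.

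The lower run with the largest falls comprised genes 274009, 1401242, 1401247 and 1401248, with log2 fold changes of -4.56, -6.38, -4.03 and -5.92. Gene 1401248 had log2 levels of 5.49, 5.83 and 7.63 at Day 10, against 12.30, 12.40 and 12.85 in the control, and its log2 fold change was -6.91 without Day 10 replicate 3; that of 1401247 was -4.65 without Day 10 replicate 1. A run of 5 lower genes, 19926 to 1476613, had log2 fold changes of -5.23 to -2.08, and a run of 4, 868019 to 867695, had -4.77 to -2.14. None of these genes is annotated in the tables used here.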
